A study of Mus musculus with 10 samples.

Results

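The genes of the fibroblast growth factor (Fgf), bone morphogenetic protein (Bmp) and growth differentiation factor (Gdf) families were examined for H3K27me3, the trimethyl mark that the polycomb repressive complex 2 (PRC2) places on histone H3. Members were the protein-coding genes of the GENCODE annotation of mm9 whose whole symbol is Fgf, Bmp or Gdf followed by a number and at most 1 letter a or b. This gave 43 of 22380 protein-coding genes, namely 22 Fgf, 11 Bmp and 10 Gdf genes. The rule uses symbols and no measured value, but it was set with earlier results of these data known. The symbols also take in Bmp1, which encodes a protease and no ligand, and 4 Fgf genes (Fgf11 to Fgf14) whose proteins stay inside the cell.

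ChIP-seq for H3K27me3 was performed in 5 mouse B-cell lymphoma lines on the C57BL/6J background, all of which carry Eμ-Myc, in which an immunoglobulin heavy chain enhancer drives Myc in the B lineage, and lack Cdkn2a (Cdkn2a-/-). The parental line was cultured from the lymphoma of 1 such mouse. Mafosfamide, an analog of the alkylating agent cyclophosphamide that acts in culture, was raised stepwise, and survivors were taken, on the days the study names, as R100 (100 nM, day 10), R500 (500 nM, day 18), R1000 (1000 nM, day 23) and R4000 (4000 nM, day 37). All lines were grown without the drug for ChIP-seq, and the resistant lines all derive from this 1 parental line. There is 1 peak list per line, with positions and no peak height or read count, so that the depth is unknown, the level of the mark within a peak was not analysed here, and no difference between lines was tested. The parental list holds 10778 peaks, the R100 and R500 lists hold 25180 and 21888 distinct peaks, and the R1000 and R4000 lists hold 9595 and 6820. The promoters of 8 B-cell marker genes had 0 bp under parental peaks. In R100, R500, R1000 and R4000, 4, 3, 2 and 1 of them were covered by at least 150 bp. Of all protein-coding genes, 17.4, 13.3, 6.92 and 5.5% were so covered. Cd79b had 1000 bp in R100, and 3 of the 8 were covered in no line. Of 5 T-cell markers 0 were covered in any line, against 20.1% of all genes in at least 1 line. Of 4 myeloid markers 1, Cd14, was covered in every line, against 3.17% of all genes. Of 5 fibroblast markers 1 was covered in R100 and R500, and a different 1 in R1000. The part of other cells in the peaks was not tested.

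Fgf proteins are secreted growth factors that bind receptor tyrosine kinases, and Bmp and Gdf proteins are ligands of the TGF-β family that signal through serine/threonine kinase receptors and Smad proteins. Both families pattern the embryo, and many of their genes are silent in a given adult cell type. PRC2 commonly marks the CpG-rich promoters of such developmental genes, where H3K27me3 accompanies gene silencing.

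The sequences below show DNA at members with wide and with little coverage, read from the mm9 genome in the direction of the gene, with CpG dinucleotides in capitals. The runs upstream of a transcription start site (TSS) are those of Bmp8a, the member with the widest coverage in R100 and R500 among those uncovered in the parental line, and of Fgf2, the first uncovered member in the order of subfamilies after Fgf1, which is not shown. Bases in an annotated exon of any gene were left out, which shortened the run of Fgf2 to 72 bases.
Bmp8a upstream, chr4:123020496-123020795, minus strand: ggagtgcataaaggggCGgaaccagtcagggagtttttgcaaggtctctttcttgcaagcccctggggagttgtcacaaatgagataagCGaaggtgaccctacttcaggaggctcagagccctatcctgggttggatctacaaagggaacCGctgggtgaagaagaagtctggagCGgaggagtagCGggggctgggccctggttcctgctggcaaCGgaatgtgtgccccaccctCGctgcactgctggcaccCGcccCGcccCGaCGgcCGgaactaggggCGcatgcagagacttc
Fgf2 upstream, chr3:37211369-37211440, plus strand: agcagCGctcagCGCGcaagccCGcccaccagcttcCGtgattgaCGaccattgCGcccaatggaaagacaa

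Runs that lie under peaks in all 5 lists were added after their values had been seen, without untranslated regions and up to 300 bases. In Fgf8 the run starts 605 bp downstream of the TSS and is intronic, and in Fgf9 it starts 3317 bp downstream.
Fgf8 common, chr19:45816601-45816800, minus strand: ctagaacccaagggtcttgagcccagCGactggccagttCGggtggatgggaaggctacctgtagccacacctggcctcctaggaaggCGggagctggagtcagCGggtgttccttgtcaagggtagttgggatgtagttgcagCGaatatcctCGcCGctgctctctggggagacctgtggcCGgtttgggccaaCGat
Fgf9 common, chr14:58692701-58693000, plus strand: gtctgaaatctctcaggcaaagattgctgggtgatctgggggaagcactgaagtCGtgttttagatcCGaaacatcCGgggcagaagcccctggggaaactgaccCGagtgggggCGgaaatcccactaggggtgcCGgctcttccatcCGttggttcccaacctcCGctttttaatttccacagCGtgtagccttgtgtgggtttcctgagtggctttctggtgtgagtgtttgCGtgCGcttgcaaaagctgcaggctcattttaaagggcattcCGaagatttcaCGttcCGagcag

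The Fgf8 run under peaks in all lines has 9 CpG dinucleotides in 200 bases and a GC content of 60.5%. The Bmp8a upstream run has 13 CpG dinucleotides and was covered over 245 bp in R100 and 100 bp in R4000, and not in the other lines. The Fgf2 run has 7 CpG dinucleotides in 72 bases and had no peak in any line. The Fgf9 run has 14 CpG dinucleotides in its 300 bases.

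A promoter was taken as the 2 kb on each side of the TSS, the 5′ end of the annotated gene, and was called covered where peaks held at least 150 bp of it. In the parental line 6 of the 43 promoters were covered (14.0%, 95% Wilson interval 6.56 to 27.3%), namely those of Fgf8, Fgf9, Fgf15, Fgf11, Gdf11 and Bmp1. Of all protein-coding genes, 5.25% were covered. R100 covered 13 members (30.2%, 18.6 to 45.1%), against 17.4% of all protein-coding genes. R500 covered 10 members (23.3%, 13.2 to 37.7%), against 13.3%. R1000 covered 7 members (16.3%, 8.12 to 29.97%), against 6.92%, and R4000 covered 6 (14.0%, 6.56 to 27.3%), against 5.5%. The share of members was above that of all genes in each line, but the R500 interval, from 13.2%, holds the share of all genes. Wilson intervals cover counting error only, and neighbouring genes are not independent.

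**Figure D1:**
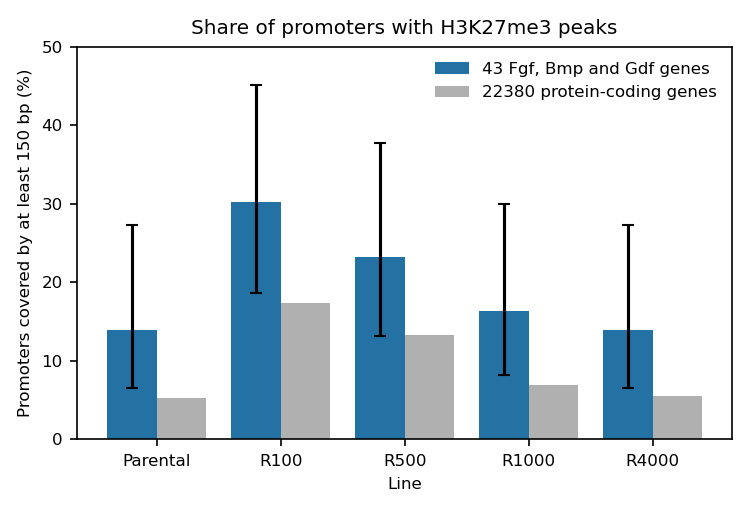
Percentage of promoters covered by at least 150 bp of H3K27me3 peaks (vertical axis) in each line (horizontal axis), for the 43 members (blue, bars with 95% Wilson intervals) and all 22380 protein-coding genes (grey). The members run from 14.0% in the parental line to 30.2% in R100 and back to 14.0% in R4000, above the grey bar in every line.

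Covered bases summed over the members came to 2884 bp (parental), 12440 bp (R100), 11625 bp (R500), 4384 bp (R1000) and 3034 bp (R4000). The sums in R100 and R500 were 4.31 and 4.03 times the parental sum, where those of all protein-coding genes were 3.86 and 3.31 times. In R1000 and R4000 the members' sums were 1.52 and 1.05 times the parental sum, against 1.31 and 0.940 times for all genes. Of all bases under peaks in each list, the members' promoters held 0.177% (parental), 0.247% (R100), 0.256% (R500), 0.272% (R1000) and 0.283% (R4000). Of the covered bases summed over all protein-coding promoters, they held 0.402, 0.448, 0.489, 0.466 and 0.449% in the same order. This second share was highest in R500 and did not rise further at the higher doses. The members are 0.192% of protein-coding genes. Fgf8, Fgf15 and Gdf11 held 65.9% of the parental sum, and Bmp1, Fgf9 and Bmp8a held 57.2% of the R4000 sum.

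Promoters of 5 members were covered in all 5 lines (11.6%, against 3.17% of all protein-coding genes). These were Fgf8, Fgf9, Fgf15, Gdf11 and Bmp1. Another 6 members, Fgf4, Fgf16, Fgf17, Fgf18, Bmp6 and Gdf9, were covered in R100 or R500 and in no other line (14.0%, against 11% of all genes). Bmp8a was uncovered in the parental line and covered in each resistant line, and Fgf11 was covered in every line but R4000. In at least 1 line 13 members were covered (30.2%, against 20.1% of all genes). The remaining 30 members were covered in no line (69.8%, against 79.9%), and 24 of them had no peak in the promoter window at all (55.8%, against 65.1%).

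**Figure D2:**
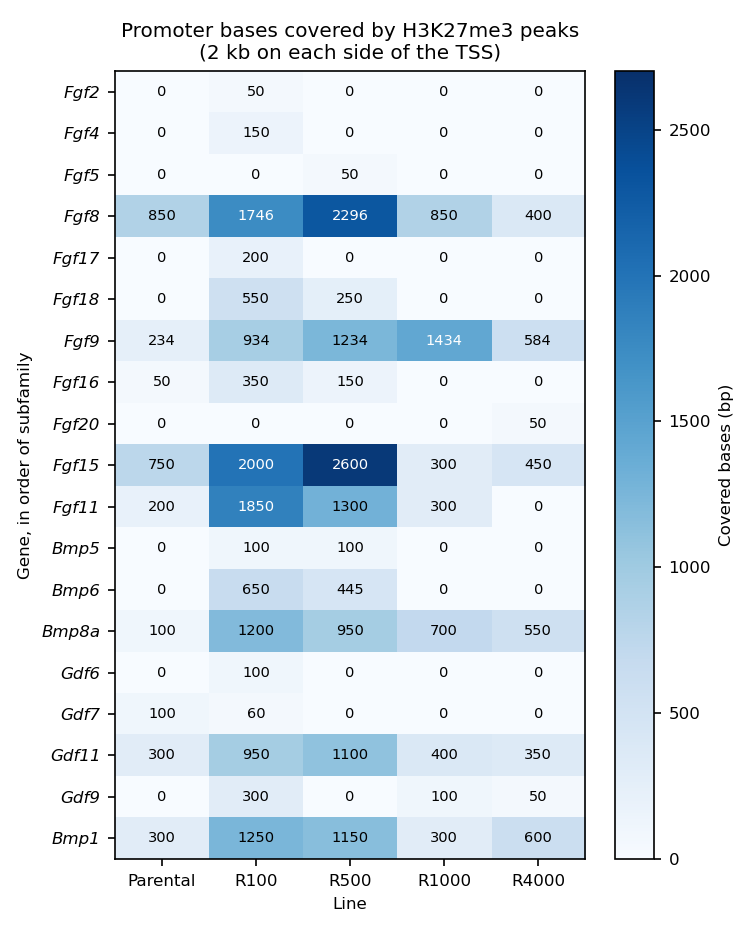
Bases of the promoter window under H3K27me3 peaks (bp, number and colour in each cell) for the 19 members with any peak there, in rows ordered by subfamily, in each line (columns). Fgf15 and Fgf8 reach the highest values, 2600 and 2296 bp in R500, and Fgf9 is highest in R1000, at 1434 bp.

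A promoter was called higher or lower where its covered length differed from the parental length by at least 2-fold, with lengths under 150 bp set to 150 bp. In R100 11 members were higher (25.6%, against 9.5% of all protein-coding genes) and 0 were lower (against 0.076%). In R500 8 were higher (18.6%, against 7.71%) and 0 were lower (against 0.0894%). In R1000 Fgf9 and Bmp8a were higher (4.65%, against 1.77%) and Fgf15 was lower (2.33%, against 0.675%). In R4000 Fgf9, Bmp8a and Bmp1 were higher (6.98%, against 0.952%) and Fgf8 was lower (2.33%, against 1.48%). From R500 to R1000, 6 members were lower, namely Fgf8, Fgf15, Fgf11, Bmp6, Gdf11 and Bmp1 (14.0%, against 6.85% of all genes), and 0 were higher (against 0.0894%). These calls rest on 1 list per line and on no test. The 4 comparisons with the parental line share that list. The calls of Fgf9 as higher also depended on the window, whose edge cut through a wide peak of the gene. Around any transcript start Fgf9 had 2850 bp (parental), 4950 bp (R100), 5250 bp (R500), 4300 bp (R1000) and 3250 bp (R4000). On these lengths it was called higher in no line.

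Among the paracrine Fgf genes, the group of Fgf8, Fgf17 and Fgf18 held promoter peaks in all its members. The group of Fgf9, Fgf16 and Fgf20 also had some promoter peak in each member, but Fgf20 had only 50 bp, in R4000. It was thus below the minimum of 150 bp and not covered in any line. Of all protein-coding promoters, 65.1% had no peak in any line. Fgf8, which directs outgrowth of the limb and patterning of the midbrain, lies on chromosome 19 from 45811288 to 45817405. Peaks covered 850 bp of the parental promoter, 1746 bp of that in R100, 2296 bp (R500), 850 bp (R1000) and 400 bp (R4000). R500 was the highest line and R4000 the lowest, while R1000 equalled the parental line in length. The bases were not all the same, since 450 of the 850 parental bp were covered in R1000. R100 covered 750 of these bp, R500 all 850 and R4000 350. The parental peaks lay between 405 and 1954 bp downstream of the TSS in 4 pieces of 100 to 400 bp. In R100 and R500 a single peak, of 1550 and 1900 bp, took up most or all of this stretch. In the whole gene, R100 covered 3000 of 6118 bp (49.0%), of which 790 bp were exonic. Fgf8 ranked 228 from the widest among the promoters of all protein-coding genes in the parental line and 127 in R500.
Fgf18, on chromosome 11 from 33017430 to 33047400, which acts in bone and cartilage, had 550 bp in R100 and 250 in R500, and 0 bp in each of the other lines. Its widest peak, 350 bp in R100, lay from -1000 to -651 bp relative to the TSS. Fgf17, on chromosome 14, had 200 bp in R100 and no promoter peak in the other lines.

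In the group of Fgf9, Fgf16 and Fgf20, Fgf9 was covered in all lines and had wide peaks inside the gene in each. Fgf9, on chromosome 14 from 58689384 to 58731174, acts in lung mesenchyme and in testis formation. Its covered promoter length was 234 bp (parental), 934 bp (R100), 1234 bp (R500), 1434 bp (R1000) and 584 bp (R4000). Of the 9 members with at least 500 bp in some line, it was the only one with its highest value in R1000. The edge of the window cut through a wide peak, which started 1767 to 1917 bp downstream of the TSS in every line. In R1000 this peak ran to 4766 bp, while in each other line a wider peak followed further downstream. Over the whole gene, 2750, 4767, 4717, 3550 and 3100 bp were covered, in the order parental, R100, R500, R1000 and R4000. These lengths varied less between lines than those of the promoter. A run of 900 bp, from 1917 to 2816 bp downstream of the TSS, was under peaks in all 5 lists, with 277 bp of coding sequence. A second run of 1400 bp followed from 3317 to 4716 bp, with 149 bp of exon.
Fgf16, on chromosome X, had 350 bp in R100, 150 in R500 and 50 in the parental line, and none in R1000 and R4000. Fgf20, a ligand of the inner ear and kidney, had 50 bp in its promoter in R4000 and in no other line. The parental line had 250 bp of intronic peak within Fgf20, its nearest edge 6135 bp from the TSS, and R100, R500 and R1000 had no peak in the gene.

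**Figure D3:**
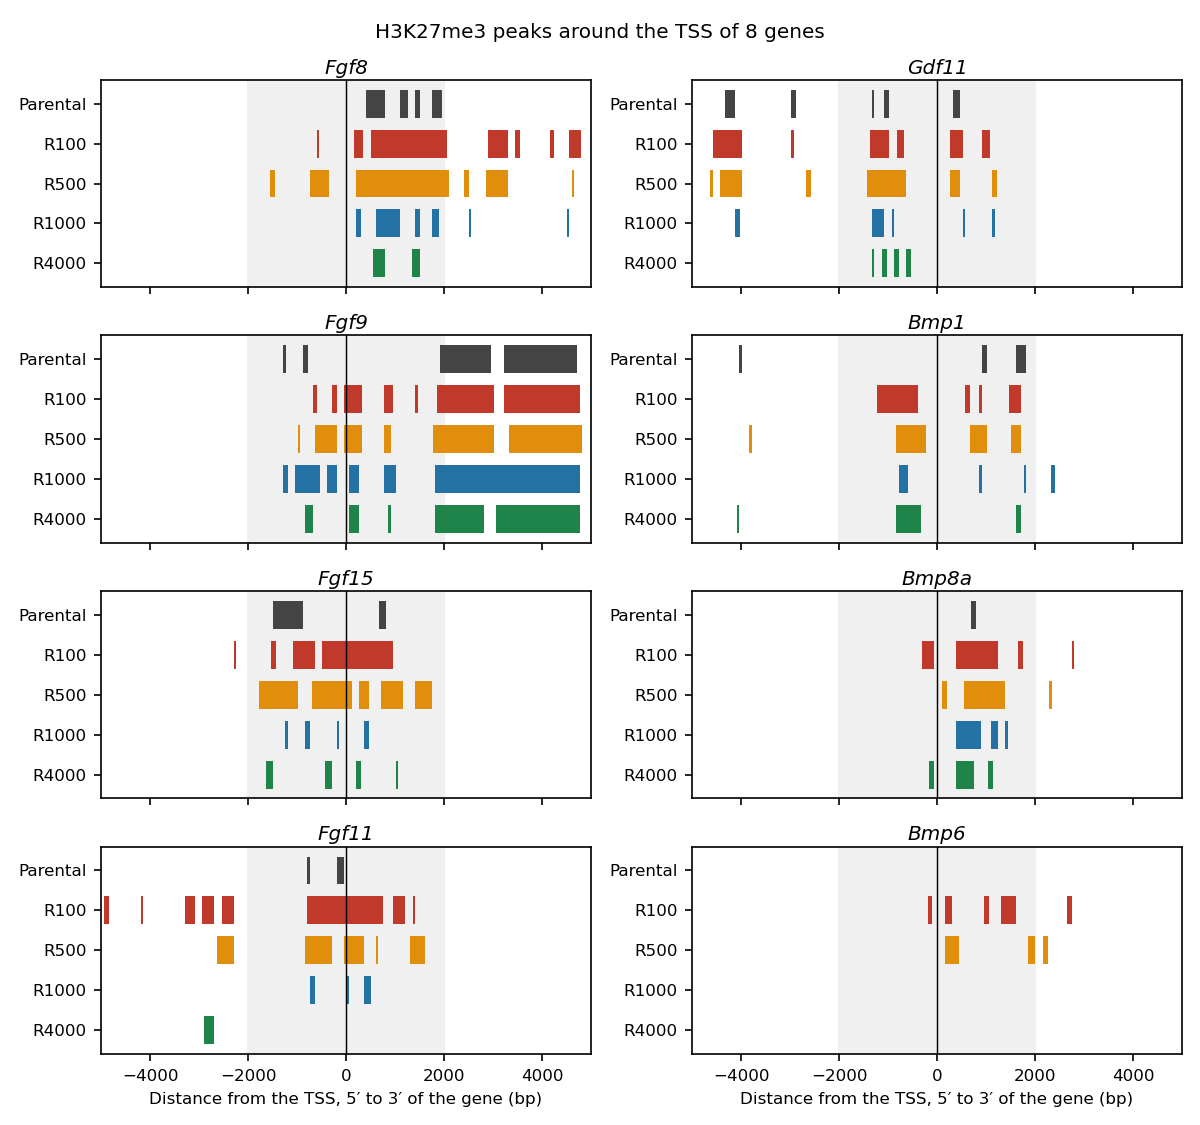
H3K27me3 peaks (boxes, 1 colour per line) around the TSS (vertical line) of 8 members, 1 row per line, against the distance from the TSS in bp in the direction of the gene, up to 5 kb. Grey marks the promoter window of 2 kb on each side. A wide peak of Fgf9 crosses the right edge of its window in all 5 lines, whereas the boxes of Fgf15 and Fgf11 are widest in R100 and R500.

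The endocrine Fgf genes encode hormones that act with Klotho proteins. Fgf15, on chromosome 7 from 152082437 to 152086858, is the intestinal hormone that represses bile acid synthesis in the liver. Peaks in its promoter added up to 750 bp (parental), 2000 bp (R100), 2600 bp (R500), 300 bp (R1000) and 450 bp (R4000). R1000 and R4000 both lay below the parental line, and R500 ranked 65 among the promoters of all protein-coding genes. In the parental line 600 of the 750 bp formed 1 peak from -1486 to -887 bp relative to the TSS. R1000 covered 50 of the 750 parental bp and R4000 covered 0, so that 250 bp of R1000 and all 450 bp of R4000 lay elsewhere in the window. Fgf21, a hormone of the fasting liver, had no peak in its promoter or gene in any line. Fgf23, the phosphate-regulating hormone of bone, had no promoter peak, and 300, 200, 100 and 100 bp of its gene were covered in R100, R500, R1000 and R4000.

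Fgf3, Fgf4 and Fgf15 lie side by side in 62.9 kb of chromosome 7, from 152023988 to 152086858, with no other protein-coding gene inside. The locus held 750 bp (parental), 2350 bp (R100), 2800 bp (R500), 300 bp (R1000) and 450 bp (R4000) under peaks. All of the peaks in the parental line, R1000 and R4000 lay within 2 kb of the Fgf15 TSS. Fgf4, a ligand of the early embryo, had 150 bp of promoter peak in R100 and 0 bp in the other lines, while 200 bp of its exons were covered in R500. Fgf3 had no peak in its promoter or gene in any line, and its TSS was 22.4 kb from the nearest peak.

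**Figure D4:**
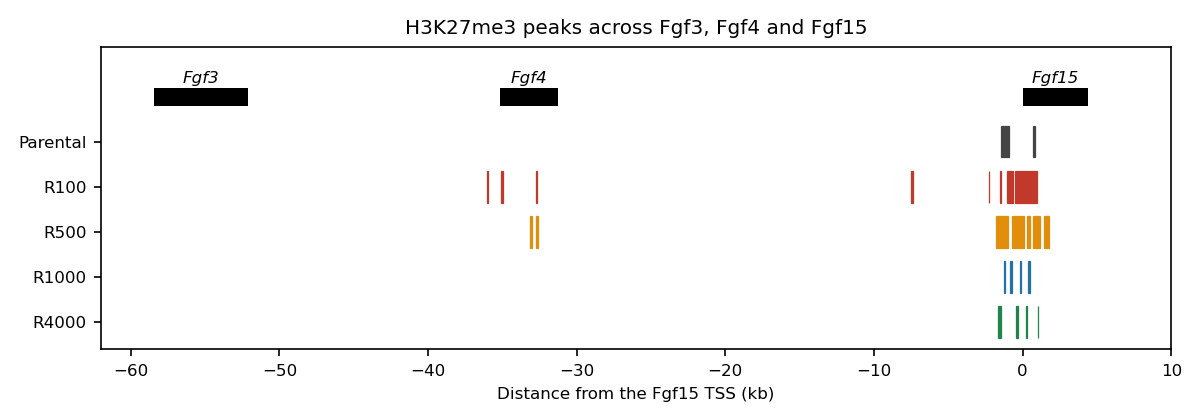
H3K27me3 peaks (boxes, drawn with a thin outline so that the narrowest stay visible) along the Fgf3, Fgf4 and Fgf15 genes (black bars), 1 row per line, against the distance from the Fgf15 TSS in kb. Peaks gather at Fgf15 in all 5 lines, a few narrow ones stand at Fgf4 in R100 and R500, and Fgf3 has none.

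The remaining paracrine Fgf genes were nearly free of peaks. Fgf2 and Fgf5, a general mitogen and a regulator of hair growth, had at most 50 bp, in R100 and R500 respectively. Fgf1, Fgf6, Fgf3, Fgf7, Fgf10 and Fgf22 had none in the promoter. Fgf10, the limb and lung bud ligand, was 759 kb from the nearest peak in any line.

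The 4 intracellular Fgf genes differed among themselves. Fgf11, on chromosome 11 from 69609570 to 69615359, had a covered length of 200 bp (parental), 1850 bp (R100), 1300 bp (R500), 300 bp (R1000) and 0 bp (R4000). In R100 a single peak of 1550 bp spanned the TSS, from -791 to 758 bp. The 300 bp of R1000 shared 0 bp with the 200 bp of the parental line. Fgf12, Fgf13 and Fgf14, which modulate sodium channels in neurons, had no peak in the promoter or the gene in any line. Their TSSs lay 1.13, 6.41 and 1.76 Mb from the nearest peak.

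Among the Bmp ligands, all promoter peaks lay at Bmp5, Bmp6 and Bmp8a. Bmp8a, which acts in the male germ line, lies on chromosome 4 from 122989888 to 123020495. Covered bases numbered 100 bp (parental), 1200 bp (R100), 950 bp (R500), 700 bp (R1000) and 550 bp (R4000). All resistant lines lay above the parental line, and the value was lower at each higher dose. A run of 50 bp of coding sequence, 695 to 744 bp downstream of the TSS, was under peaks in all 5 lists. Bmp8b, its paralog with a TSS 238 kb away, had no peak in its promoter or gene. Reads from such related genes can map to both copies, and how such reads were treated is not given in the sources used here.
Bmp6, on chromosome 13 from 38436995 to 38592183, induces hepcidin in iron balance. R100 had 650 bp and R500 had 445 bp, while the parental line, R1000 and R4000 had 0 bp. The peaks of R100 were 4 pieces of 100 to 300 bp. Bmp5 had 100 bp in R100 and in R500 and no promoter peak in the other lines. Bmp7, a kidney and eye ligand, had no peak in its promoter or gene.

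Bmp2 and Bmp4, the main ligands of dorsoventral and bone development, were without peaks in every line. The TSS of Bmp2 was at least 330 kb from a peak in each list, and that of Bmp4 at least 397 kb. Bmp3, Gdf10, Gdf2, Bmp10 and the oocyte factor Bmp15 had none in promoter or gene either. In all, 10 of the 30 uncovered members had no peak within 100 kb of the TSS in any line, namely Fgf10, Fgf12, Fgf13, Fgf14, Bmp2, Bmp4, Bmp3, Gdf10, Gdf2 and Bmp15 (33.3%, against 34.7% of uncovered protein-coding genes). The median distance from the TSS of an uncovered member to the nearest peak was shortest in R100 (62.3 kb) and R500 (73.0 kb) and longer in the parental line (135 kb), R1000 (186 kb) and R4000 (248 kb), the inverse of the order of the lists by number of peaks. For uncovered protein-coding genes the medians were 181, 61.8, 86.9, 167 and 221 kb in the order parental, R100, R500, R1000 and R4000.

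Bmp1, on chromosome 14 from 70874364 to 70920067, encodes a protease that processes procollagen and cleaves the Bmp antagonist chordin. Covered length came to 300 bp (parental), 1250 bp (R100), 1150 bp (R500), 300 bp (R1000) and 600 bp (R4000). The parental line had no peak upstream of its TSS within the window, and each resistant line had 1, with a width of 850 bp (R100), 600 bp (R500), 200 bp (R1000) and 500 bp (R4000). The window also holds 1320 bp of Sftpc, the lung surfactant gene, in which 553, 153, 103 and 153 of these bp lay. The part of either gene in the peak was not tested.

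Of the Gdf genes, Gdf11 alone was covered in all lines. Gdf11, which patterns the axial skeleton, lies on chromosome 10 from 128319351 to 128328774. The window held 300 bp (parental), 950 bp (R100), 1100 bp (R500), 400 bp (R1000) and 350 bp (R4000) under peaks. The last 2 differed from the parental line by 100 bp or less. R100 and R500 covered all 300 parental bp, R1000 covered 50 and R4000 covered 100. A run of 50 bp, from -1326 to -1277 bp relative to the TSS, was under peaks in all 5 lists.
Gdf9, an oocyte factor, had 300 bp under peaks in R100, 100 in R1000 and 50 in R4000. All of these bp lay within Uqcrq, a gene of respiratory complex III whose TSS is 192 bp away. Gdf6 and Gdf7, ligands of joints and the spinal cord, reached at most 100 bp. Gdf7 had 100 bp in parental cells and 60 in R100. Gdf1, Gdf3, Gdf5 and the stress-induced cytokine Gdf15 had no peak in promoter or gene.

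Lines were also compared base by base. In the 6 members covered in the parental line, peaks held 2634 parental bp, of which R100 covered 69.6%, R500 79.1%, R1000 31.7% and R4000 26.0%. For all protein-coding promoters covered in the parental line the shares were 75.2, 77.6, 50.2 and 36.2%. The members' shares in R1000 and R4000 were lower than those of all such promoters. Fgf15 held 750 of the 2634 parental bp, of which 6.67% were covered in R1000 and 0% in R4000. Without Fgf15, which was left out after its values had been seen, the other 5 members had 76.1, 78.8, 41.6 and 36.3%. Leaving out a gene with such low values raises these shares by construction. In R1000 Fgf11 had 0%, Bmp1 and Gdf11 16.7% each, Fgf8 52.9% and Fgf9 100%. A base under peaks in all 5 lists was found in the window of 3 of the 5 members covered throughout, Fgf8, Fgf9 and Gdf11 (60.0%), against 71.5% of the 710 protein-coding promoters covered throughout. In Fgf15 and Bmp1, each line had peaks but no base was common to all.

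The upstream side of the TSS held 38.1, 39.1, 41.8, 38.8 and 47.8% of the members' covered bases in the order parental, R100, R500, R1000 and R4000. For all protein-coding genes the shares were 39.1, 33.7, 35.6, 35.9 and 34.4%. The members' share in R4000 rests on 1450 bp upstream, of which 1 peak of Bmp1 held 500 bp. In the body of the gene, between its annotated ends, at least 150 bp were covered in 6, 13, 11, 5 and 4 members in the order of the lines. Of all protein-coding genes, 5.67, 17.7, 13.7, 6.68 and 5.18% were so covered.

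The promoters were also compared by sequence, which the choice of members did not use. In the 1 kb on each side of the TSS, the ratio of observed to expected CpG dinucleotides had a median of 0.663 in the 13 members covered in at least 1 line and of 0.389 in the 30 covered in none. Over all protein-coding genes the medians were 0.644 and 0.374. A ratio of at least 0.6 was found in 18 of the 43 members (41.9%, against 33.8% of all protein-coding genes). Shares of all genes given elsewhere in this report are not matched for this ratio. Of these 18 members, 9 were covered in some line (50%, against 36.0% of such protein-coding genes), and of the 25 below it 4 were (16.0%, against 12.0%). The exceptions ran in both directions. Fgf17 had a ratio of 0.305 and 200 bp in R100, and Fgf9 and Fgf11 had 0.517 and 0.525. Bmp2 had the highest ratio of all members, 0.893, with no peak in any line. Fgf13, Bmp7, Bmp8b, Fgf12 and Gdf10, with ratios from 0.637 to 0.703, had no promoter peak either.
The E-box CAGGTG, a letter string bound by E proteins such as E2a, was sought on both strands in the 300 bases upstream of the TSS. It was in 9 of the 43 members (20.9%), against 20.3% of all protein-coding genes, in 2 of the 13 covered members (15.4%, against 21.3% of covered protein-coding genes) and in 7 of the 30 uncovered members (23.3%, against 20.0% of uncovered ones).

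**Figure D5:**
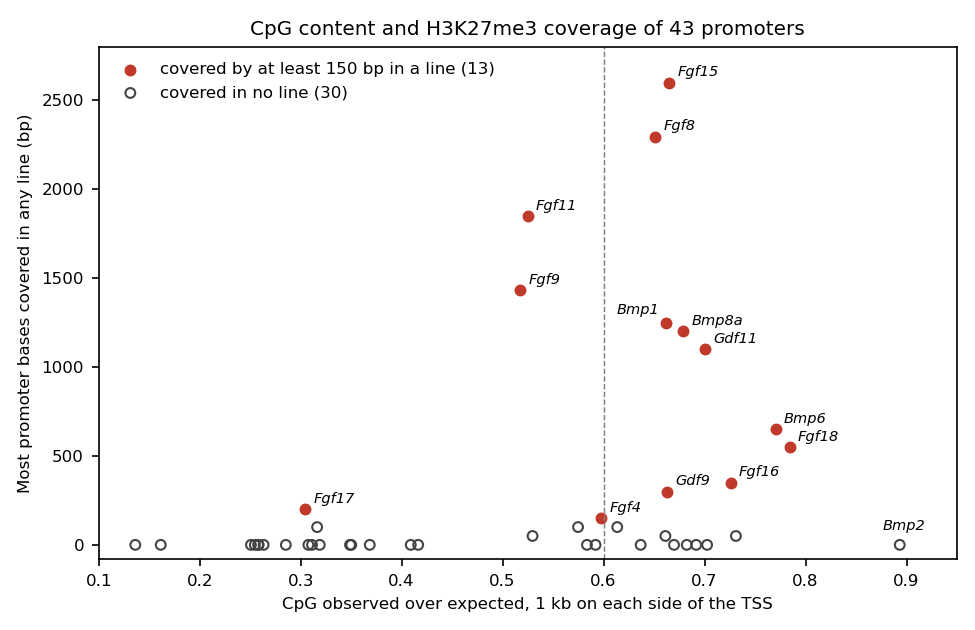
Most promoter bases covered in any line (bp, vertical axis) against the ratio of observed to expected CpG in the 1 kb on each side of the TSS (horizontal axis), for 43 members. Filled points are the 13 members covered in a line, open points the 30 covered in none, and the dashed line marks a ratio of 0.6. Bmp2 has the highest ratio, 0.893, and lies at 0 bp.

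Genes of the same pathways were counted by the same rule. Of 63 receptors, antagonists, Smads, feedback genes and other TGF-β ligands, 9 were covered in the parental line and 26, 22, 10 and 12 in R100, R500, R1000 and R4000. These are 14.3, 41.3, 34.9, 15.9 and 19.0% of the list, against 5.25, 17.4, 13.3, 6.92 and 5.5% of all protein-coding genes. Higher coverage than in the parental line was found in 18, 20, 4 and 3 of them (28.6, 31.7, 6.35 and 4.76%, against 9.5, 7.71, 1.77 and 0.952% of all genes). Lower coverage was found in 0, 0, 1 and 1 (0, 0, 1.59 and 1.59%, against 0.076, 0.0894, 0.675 and 1.48%). The shares of all genes covered in each line are also those to set beside the counts of the single lists. Of 7 Fgf receptors and co-receptors, 1 was covered in the parental line and 4 in R100, and Fgfr3, the receptor that restrains bone growth, had 450, 2773, 1973, 1200 and 400 bp in the order of the lines. Fgfr2 had 0 bp in the parental line and 1150, 1650, 300 and 750 bp in the resistant lines. Of 10 Bmp and activin receptors, 4 were covered in the parental line and 5 in R100. Bmpr2, the type II receptor shared by Bmp ligands, had 1320, 1820, 1970, 1320 and 1220 bp and thus the most even coverage among the receptors named here. Acvr2b, an activin type II receptor, had 950, 1500, 1750, 1250 and 1050 bp. Acvrl1, a type I receptor of endothelium, had 700, 1350, 1800, 100 and 350 bp.
Of 15 secreted Bmp antagonists, the parental line covered 2 and the resistant lines 7, 5, 0 and 1 in order of dose (13.3, 46.7, 33.3, 0 and 6.67%, against 5.25, 17.4, 13.3, 6.92 and 5.5% of all genes). Nog, which encodes noggin, had 150, 1100, 750, 0 and 0 bp. Of 8 Smads, Smad6, an inhibitor of Bmp signalling, was covered in all lines, with 850, 2085, 1735, 1085 and 985 bp. Of 10 feedback inhibitors and targets of Fgf signalling in the annotation, 1 was covered in the parental line and 4 in R100. Etv4, a transcription factor induced by Fgf, had 0, 1500, 750, 266 and 450 bp. Of 13 other TGF-β family ligands, the parental line covered 0 and the resistant lines 4, 4, 1 and 2 in order of dose. Tgfb2 had 100, 1150, 1350, 100 and 450 bp.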

How the data were processed

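H3K27me3 ChIP-seq peak lists of 5 lines were used, while the reduced representation bisulfite samples were left out. Per their methods, the authors read 50 bp from ChIP and input libraries and called peaks in windows tiling the genome with Poisson statistics. The submitters' processing notes name Bowtie and mm9. For calling a promoter enriched, the methods ask for at least 3 bins of 50 bp under a p-value limit within 5 kb upstream of the TSS. Whether that limit made the deposited lists, and whether replicates were pooled, is not given in the sources used here. The methods give the dose escalation as 34 days, which is shorter than the last harvest day, 37. The deposited values are peak positions in bp, so depth is unknown. Positions count from 1 on a grid of 50 bp, and all lie within the chromosomes of NCBIM37 (mm9). Peaks occur 2 times each in R100 and R500, and repeats were dropped.

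Peak coverage of promoters and genes was counted with Python 3.11.15 and numpy 2.4.6, for the GENCODE M1 annotation. The counting was tested on simulated data. Sequence was read with pysam 0.24.0, and figures were drawn with matplotlib 3.10.9. Fgfr1, held under 2 gene identifiers, was taken as its longest record. Spry3 was not found by symbol.

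Members, gene lists and settings were chosen with earlier results of these data known. Members with at least 500 bp in the promoter in some line are given with all values, and for each pathway list at most 3 genes of the widest summed coverage. Alternatives were minimums of 1 and 500 bp, peaks at least 200 bp wide, lists of the 6820 widest peaks, floors of 50 and 500 bp, and windows of 5 kb upstream, 1 kb on each side or around any transcript start. A marker gene and an upstream sequence are not reported here.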

Additional observations from a re-analysis of the deposited data

Results flagged for a closer look

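Lines moved in opposite directions from the parental line in 3 members, and the difference was not tested. The Fgf8 promoter went from 850 bp to 2296 bp in R500 and was at 400 bp in R4000, a difference from the parental line of -450 bp. Fgf15 went from 750 bp to 2600 bp in R500 and was at 300 bp in R1000, a difference of -450 bp. Fgf11 went from 200 bp to 1850 bp in R100 and had no promoter peak in R4000, a difference of -200 bp. Only the 9 members with at least 500 bp in some line were looked at, and with 1 list per line no sample could be compared with others of its group.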

How the results depend on the processing

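Of the counts given for members over 1 line or comparison, 96 recomputed values stayed within 1.5 times the reported count and 36 did not. Shares of all protein-coding genes are not given for these settings, so the counts do not show how members stood against all genes there. With lists of equal number (the 6820 widest peaks of each line), none of the counts moved beyond this limit, and R100 and R500 covered 11 and 9 promoters. This setting kept the whole R4000 list and only the widest peaks of the other lines, and it did not make covered bases equal. Promoters covered were 3 in the parental line with peaks at least 200 bp wide, 2, 3 and 3 in the parental line, R1000 and R4000 at a minimum of 500 bp, and 8 in R100 and 4 in R1000 with 5 kb upstream. Genes covered were 3 in the parental line and 3 in R1000 with the wider peaks, 10, 9 and 8 in the parental line, R1000 and R4000 at a minimum of 1 bp, and 2, 6, 7, 3 and 1 in the order of the lines at 500 bp. Members covered in all 5 lines were 2 with the wider peaks, 2 with 1 kb on each side, 3 with 5 kb upstream and 0 at 500 bp. With a floor of 500 bp, 5, 1 and 0 members were higher in R100, R1000 and R4000, and 0 were lower in R1000 and R4000. With a floor of 50 bp, 1, 2 and 3 were lower in R500, R1000 and R4000, and 1 was higher in R1000 than in R500. With 5 kb upstream, 5, 1 and 1 were higher in R100, R1000 and R4000. With any transcript start, 1 was higher in R1000, and Fgf9 was called higher in no line. With 1 kb on each side, 0 were lower in R1000 and R4000, and with the wider peaks 2 were lower in R4000. The direction turned with 5 kb upstream for Fgf11 in R1000, which differed from the parental line by -100 bp, and for Gdf11, by -50 bp in R1000 and -100 bp in R4000. With 1 kb on each side Gdf11 in R1000 differed by -74 bp. The causes were not tested. No paired analysis was possible because each line has 1 list. Covered length depends on how many peaks were called in each list, the number of reads behind them is unknown, and no spread between replicates can be had. Leaving out a replicate was not possible for the same reason.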
